A study of Homo sapiens with 18 samples.

Results

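Riboflavin (vitamin B2) is the precursor of FMN and FAD, the flavin cofactors of many oxidoreductases, among them respiratory chain enzymes, fatty acid dehydrogenases, thioredoxin reductase and glutathione reductase. The comparison described here asks which genes responded differently to riboflavin depletion at 72 h than at 48 h. For each probe set it is the depletion effect at 72 h (depleted minus control cells) minus the same effect at 48 h, on the scale log2(signal + 16). It used 12 of the 18 arrays of the series, 3 in each of 4 groups. These were cells labelled ribo deficient at 72 h, control cells at 72 h, cells labelled ribo deficient at 48 h and control cells at 48 h, called depleted and control cells below. The other 6 arrays, of both media at 24 h, lay outside the contrast and served only to estimate the spread and to give the earlier effect as a description.

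All groups were Caco-2, a human colon carcinoma line that takes on features of small intestinal enterocytes once it is confluent and that also expresses liver-type secreted proteins. The title of the series places the study in the question of how depletion impairs proliferation of intestinal cells. By the growth protocol, cells grew in DMEM or in riboflavin-free DMEM, both with foetal calf serum and the antibiotics penicillin and streptomycin. Dialysed serum is mentioned for some cultures without saying which arrays it applies to. Caco-2 is a single tumour line, and nothing in the labels says whether the 3 replicates were separate cultures, so a p-value covers no more than the spread among these arrays. In such bulk RNA, fewer cells of a kind and less RNA per cell cannot be told apart.

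The arrays are numbered through all 6 groups once for each replicate, which forms 3 sets of 6 arrays, and each set gave its own value of the contrast. Set 2 had higher median array signals, of 28.2 to 31.3 at 48 h and 72 h, against 18.4 to 22 for set 1 and 19.1 to 22.3 for set 3. Its highest signals were 27380 to 31283, against 7669 to 8130 for set 1 and 6905 to 8090 for set 3. The mean signal without the extremes was 100.01 on every array, so the sets differed in the spread of signals and not in this mean. In set 2 the control array at 48 h carries a suffix in its number (9-2) that the labels leave unexplained. The cell type markers fitted the label only in part. VIL1 and CDH17, a brush border protein and an intestinal cadherin, had signals of 739 to 1989 and of 1995 to 2934 over the 12 arrays, while the differentiation keratin KRT20 stayed at 9.7 to 51.2. The leukocyte antigen PTPRC lay at 1.0 to 16.6 and the fibroblast collagen COL1A2 at 1.2 to 59.1.

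Between 48 h and 72 h the effect of depletion spread to many more genes. At 72 h limma called 1831 of 12319 genes (14.9%), 765 higher (6.21%) and 1066 lower (8.65%) in depleted cells. At 48 h it called 100 (0.812%), 70 higher (0.568%) and 30 lower (0.244%). In probe sets these were 3631 (13.3%) at 72 h and 189 (0.692%) at 48 h. The change itself, with 1 probe set per gene, was called for 321 genes (2.61%) at an adjusted p under 0.05. For 145 of them (1.18%) the effect was more positive at 72 h, and for 176 (1.43%) it was more negative. All 321 had the same sign in each of the 3 sets, which their choice by the contrast favours. Over the 27307 probe sets tested, 615 (2.25%) were called, 280 (1.03%) more positive and 335 (1.23%) more negative. This split depended on scaling, with 378 more positive and 142 more negative after centring each array on its 75th percentile, and 317 and 239 under quantile normalization. The median change of all genes was -0.08 with the authors' scaling and 0.06 with that centring, so each list median below is set beside -0.08. Each count of called list members below is likewise to be set beside the 1.18% of all genes more positive and the 1.43% more negative. List counts at an unadjusted p under 0.05 in limma are to be set beside 2245 of all 12319 genes.

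The count of 615 rested on the pairing by set and on every set. It was 46 without the set as block, all of them among the 615, and it was 0, 107 and 4 without sets 1, 2 and 3. With set 1 left out, limma found 2980 of the 27307 probe sets tested at an unadjusted p under 0.05. Some probe sets fall under it by chance alone.

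Few of the called genes had already differed at 48 h. Over the 145 genes whose effect became more positive, the median effect was 0.05 at 24 h, -0.12 at 48 h and 1.12 at 72 h. Over the 176 that became more negative it was 0.16, 0.21 and -1.02. At 72 h, 140 of the 145 were called higher and 151 of the 176 were called lower in depleted cells, which the choice of these genes by the contrast itself favours. At 48 h, 3 of the 145 were called higher and 2 lower, and 12 of the 176 were called higher and 1 lower. By sign, the effect had the same direction at both times but was larger at 72 h in 51 and 55 genes, was smaller in 0 and 2, and was of opposite sign in 94 and 119. The sign was opposite in all 3 sets for 49 and 73 of them. The effect at 24 h was nearer to that at 48 h than to that at 72 h in 137 of the 145 and 165 of the 176 genes. Choosing genes by a large gap between 48 h and 72 h favours this count and the opposite signs, so both are descriptions only.

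**Figure D1:**
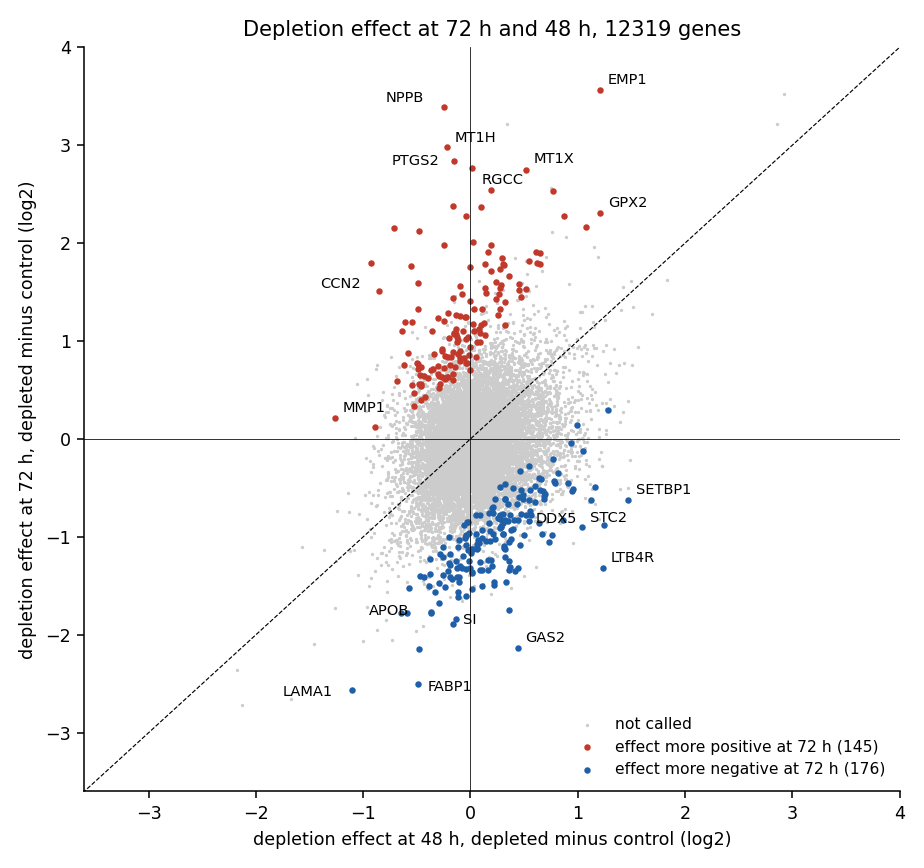
Depletion effect at 72 h (vertical axis) against that at 48 h (horizontal axis), both depleted minus control on the log2 scale, 1 point for each of 12319 genes, with the line of equal effects dashed. The 145 genes called more positive at 72 h lie above the line and the 176 called more negative below it, most of them near 0 at 48 h.

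Levels moved in both media during the last day. Between 48 h and 72 h, 1067 genes (8.66%) changed in depleted cells, 530 upward (4.3%) and 537 downward (4.36%). In control cells 225 (1.83%) changed, 134 upward (1.09%) and 91 downward (0.739%). In probe sets the counts were 2168 (7.94%) and 371 (1.36%). Of the 145 genes, 108 rose in depleted cells and 25 fell in control cells in that day, with median level changes of 0.77 and -0.40. Of the 176 genes, 110 fell in depleted cells and 36 rose in control cells, with medians of -0.68 and 0.54. The estimated move was larger in depleted cells for 103 of the 145 and 109 of the 176, and larger in control cells for 42 and 67. The 2 media moved in opposite directions in 130 and 160 genes. Such moves, and the counts of rises and falls above, are favoured by the choice of these genes. The change by which they were chosen is the move in depleted cells minus that in control cells. The move in depleted or in control cells is given below for some of the genes described, and the plot of level changes shows both for all 321.

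**Figure D2:**
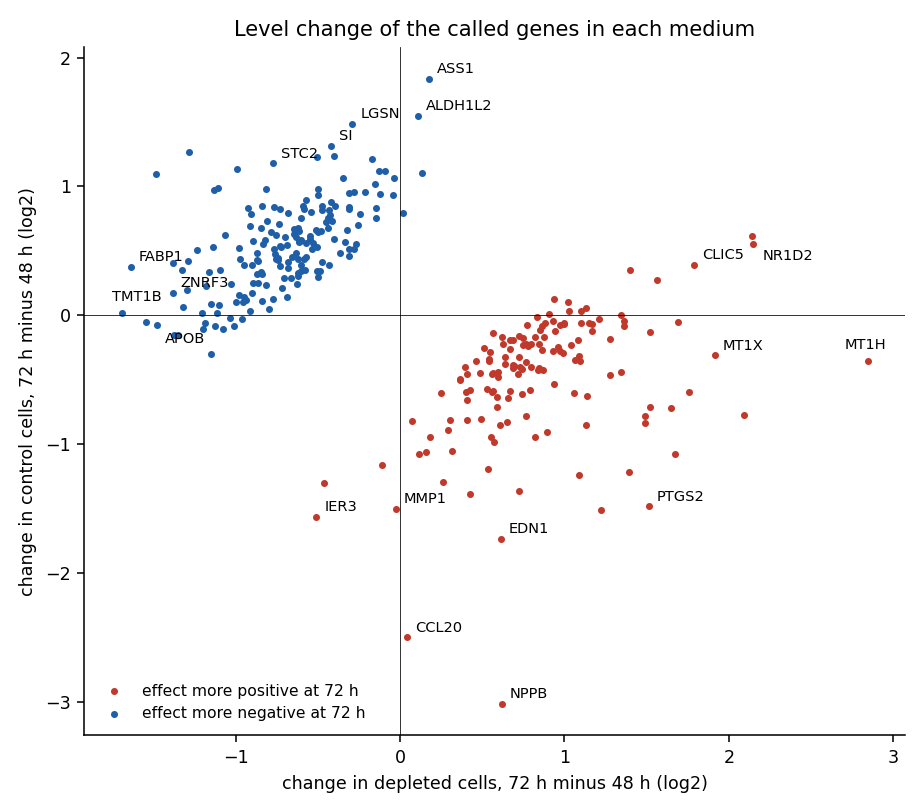
Level change from 48 h to 72 h in depleted cells (horizontal axis) and in control cells (vertical axis), log2, for the 145 genes called more positive and the 176 called more negative. MT1H and NR1D2 moved mainly in depleted cells, NPPB and CCL20 mainly in control cells, and APOB and TMT1B fell in depleted cells with little change in control cells.

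NPPB, the precursor of the B-type natriuretic peptide, had the largest positive change at the pseudocount of 16, while at 4 the dimmer MT1H (4.06) and PLAAT2 (3.94) came before it. Its signals were 910.2, 796 and 1236 in depleted cells at 72 h, against 53.9, 75.1 and 113 in control cells at 72 h. At 48 h they were 625, 564 and 682 in depleted cells and 982, 433 and 958 in control cells. The groups overlapped at 48 h and lay far apart at 72 h, and the effect was -1.39 at 24 h, -0.25 at 48 h and 3.39 at 72 h. The change was 3.64 (SE 0.36, adjusted p = 0.000684), a 12.4-fold difference between the 2 effects. Control cells fell by 3.02 between 48 h and 72 h (adjusted p = 0.000128), while the depleted cells were at 0.62 (adjusted p = 0.158).

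Several leading genes are targets of TEAD, the DNA-binding partner of YAP and TAZ, which report on cell density and tension and act together with TGF-beta signalling on matrix genes. The promoters of CCN2 and ANKRD1 are shown because both are textbook targets of TEAD. The 250 bases before the start site, from RefSeq (GRCh38.p14), are printed 5′ to 3′ on the gene's strand, with matches to the TEAD core GGAATG on either strand in capitals. The CCN2 stretch is chr6:131951373-131951622 on the minus strand and has 3 matches, and the ANKRD1 stretch is chr10:90921088-90921337 on the minus strand and has 2. Of 35116 promoters of that length, 11.9% hold at least 1 match, 0.940% at least 2 and 0.0826% at least 3. A match to these letters is a description of the sequence and not a mapped binding site. Because both genes were picked as known targets, these shares are no evidence about the present data. Promoters of the other leading genes are not shown.
CCN2: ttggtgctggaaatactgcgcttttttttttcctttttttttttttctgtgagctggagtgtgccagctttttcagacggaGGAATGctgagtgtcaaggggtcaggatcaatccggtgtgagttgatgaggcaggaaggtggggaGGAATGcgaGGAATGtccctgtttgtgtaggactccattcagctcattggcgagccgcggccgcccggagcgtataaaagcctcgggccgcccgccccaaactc
ANKRD1: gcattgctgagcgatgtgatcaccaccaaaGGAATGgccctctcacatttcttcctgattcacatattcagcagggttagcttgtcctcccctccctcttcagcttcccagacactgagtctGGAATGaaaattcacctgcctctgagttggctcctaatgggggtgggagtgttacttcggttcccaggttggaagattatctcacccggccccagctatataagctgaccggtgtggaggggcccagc

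CCN1, CCN2 and ANKRD1 were called higher in depleted cells at 72 h and in neither direction at 48 h. CCN1, a matricellular protein, had signals of 1611, 2442 and 1589 in depleted cells and 320.2, 356 and 597 in control cells at 72 h. At 48 h its signals were 759.9, 721 and 606 in depleted cells and 1346, 872 and 775 in control cells. The order of the media turned over between the times in all 3 sets, and the change was 2.60 (SE 0.40, adjusted p = 0.00675). CCN2, connective tissue growth factor, had 536, 319 and 391 in depleted cells and 159, 83.0 and 174 in control cells at 72 h. At 48 h it had 132, 82.9 and 151 in depleted cells and 426, 225 and 121 in control cells. Set 3 departed from the others at 48 h, where control cells lay below depleted cells, and the change by set was 3.24, 3.04 and 0.81 (2.36, SE 0.41, adjusted p = 0.0123 over all). ANKRD1, an ankyrin repeat protein first known from the heart, had 162, 139.5 and 133 in depleted cells and 22.5, 31.6 and 41.2 in control cells at 72 h. Its 48 h signals were 37.5, 49.8 and 37.0 in depleted cells and 80.3, 102 and 36.2 in control cells, and the change was 2.32 (SE 0.36, adjusted p = 0.00716). All 3 rose in depleted cells in the last day, by 1.39, 1.65 and 1.49 (adjusted p = 0.0101, 0.00521 and 0.00439).

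These 3 genes are among 7 of 24 measured genes of the SMAD and TGF-beta response whose effect became more positive, against 1.18% of all genes, and none became more negative. The list median of the change was 0.26. The other 4 were TGFB2, a TGF-beta ligand (1.99, SE 0.35, adjusted p = 0.013), THBS1, a matrix glycoprotein that activates latent TGF-beta (1.74, SE 0.26, adjusted p = 0.00591), the SMAD corepressor TGIF1 (1.20, SE 0.21, adjusted p = 0.0112) and the ligand BMP2 (1.16, SE 0.26, adjusted p = 0.0385). TGFB2 had 112, 178 and 115 in depleted cells against 14.3, 16.5 and 34.5 in control cells at 72 h, while at 48 h it had 44.9, 70.6 and 42.7 in depleted cells and 52.0, 60.4 and 40.6 in control cells. TGFB2 thus overlapped between the media at 48 h, and at 72 h every depleted array was above every control array. The test was repeated 12 times with 1 of the 12 arrays omitted. BMP2 kept its call in 2 of these 12 single-array omissions (adjusted p up to 0.102), and the other 6 kept theirs in all 12. SMAD6 and SMAD7, inhibitors of the pathway, were not called, at -1.54 and 0.05 (adjusted p = 0.0646 and 0.967), and neither was the feedback gene PMEPA1 at -0.01 (0.990), although its effect was called at both times, at 1.15 and 1.14. Fibroblast markers, several of which also respond to TGF-beta, summed to 8867 to 13030 in depleted and 7273 to 11077 in control cells at 72 h, and to 7941 to 12877 in depleted and 9259 to 13401 in control cells at 48 h. Of 11 measured, TAGLN, an actin-binding protein, became more positive (1.56, SE 0.37, adjusted p = 0.0451, kept in 2 of the 12 fits, adjusted p up to 0.117), and a part of such cells in these results was not tested.

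EDN1 and JAG1, the vasoactive peptide endothelin and a Notch ligand, also became more positive. EDN1 had 1352, 1933 and 1453 in depleted cells and 202, 414 and 194 in control cells at 72 h. Its signals at 48 h were 964, 1272 and 848 in depleted cells and 1129, 982 and 622 in control cells. The change was 2.35 (SE 0.29, adjusted p = 0.00243), and control cells fell by 1.74 in the last day (adjusted p = 0.00172). The other 2 EDN1 probe sets gave changes of -0.24 and 2.02, and 1 of them was called. JAG1 had 3014, 2589 and 2685 in depleted cells and 704, 689 and 668 in control cells at 72 h, against 1073, 669 and 1197 in depleted and 1037, 1699.5 and 827 in control cells at 48 h. The media overlapped at 48 h and not at 72 h. Depleted cells rose by 1.52 (adjusted p = 0.00439), and the change was 2.23 (SE 0.37, adjusted p = 0.00971).

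Metallothioneins are small cysteine-rich proteins that bind zinc and copper and are induced through the metal-responsive factor MTF1. The promoters of MT1H and MT1X, both called below, are shown with matches to the metal response core in capitals (TGCACNC or TGCGCNC, either strand, RefSeq, GRCh38.p14). The MT1H stretch, chr16:56669564-56669813 on the plus strand, has 8 matches, and the MT1X stretch, chr16:56682220-56682469 on the plus strand, has 4. At least 1 match is found in 24.8% of the 35116 promoters, at least 4 in 0.370% and at least 8 in 0.0171%. Here too the genes were picked from a family known to be induced through MTF1, so the shares only describe the sequences.
MT1H: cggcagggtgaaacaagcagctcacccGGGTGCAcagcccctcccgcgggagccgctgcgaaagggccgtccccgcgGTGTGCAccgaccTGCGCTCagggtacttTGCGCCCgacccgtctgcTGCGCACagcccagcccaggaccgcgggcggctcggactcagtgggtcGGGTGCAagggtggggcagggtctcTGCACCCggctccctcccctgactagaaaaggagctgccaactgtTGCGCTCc
MT1X: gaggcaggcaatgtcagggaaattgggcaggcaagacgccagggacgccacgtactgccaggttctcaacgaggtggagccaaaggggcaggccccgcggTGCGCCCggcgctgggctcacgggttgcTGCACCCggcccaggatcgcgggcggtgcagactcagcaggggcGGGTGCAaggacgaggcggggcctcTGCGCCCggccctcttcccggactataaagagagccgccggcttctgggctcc

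The metallothionein signals stood out in depleted cells at 72 h. MT1H had 196, 241 and 126 there and 6.9, 11.3 and 9.2 in control cells at 72 h, against 14.5, 9.3 and 10.9 in depleted and 2.8, 34.6 and 18.6 in control cells at 48 h. In the other 3 groups no MT1H signal was above 34.6, and the change was 3.20 (SE 0.54, adjusted p = 0.0103). MT1H entered the test only through depleted cells at 72 h. Its mean log2 value was 7.63 there and at most 5.00 in each other group, 24 h included, under the filter of 5.15. Its call is therefore no independent support. MT1X had 286, 309 and 376 in depleted and 22.6, 54.6 and 31.1 in control cells at 72 h, and 49.4, 115 and 67.5 in depleted and 57.7, 55.1 and 30.8 in control cells at 48 h. Its change was 2.23 (SE 0.44, adjusted p = 0.0211), and depleted cells rose by 1.92 in the last day (adjusted p = 0.00356) while control cells were at -0.31 (adjusted p = 0.679). MT1X kept its call in 7 of 12 single-array omissions (adjusted p up to 0.0636).

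Of 10 measured metallothionein and zinc response genes these 2 became more positive and none more negative, against 1.18% and 1.43% of all genes. MT1H counts among the 10 only through its signal in depleted cells at 72 h. The list median was 1.10. MT2A (1.81, adjusted p = 0.113), MT1G (1.25, 0.119), MT1F (1.21, 0.0715) and MT1E (0.99, 0.320) did not pass. The zinc exporter SLC30A1, also a target of MTF1, was at -0.93 (adjusted p = 0.0553), with an effect of 0.71 at 48 h and -0.22 at 72 h, and MTF1 itself at 0.55 (0.275). Probe sets of the MT1 genes match near-identical members, so a signal cannot be assigned to 1 of them with certainty. Only with the filter raised to the 75th percentile, which drops the dimmer members, was the list median of the other sign (-0.20).

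Immediate early genes and feedback inhibitors of MAP kinase signalling were a further group. Of 25 measured genes of the AP-1 and immediate early list, 7 became more positive, against 1.18% of all genes, and none more negative, with a median change of 1.01. At 72 h, 20 of the 25 were called higher in depleted cells, against 6.21% of all genes, and at 48 h 1 was, against 0.568%. MAFF, a small MAF transcription factor, had 1729, 815 and 1227 in depleted and 369, 161 and 216 in control cells at 72 h. At 48 h the MAFF signals were 904, 372 and 510.4 in depleted and 835, 711 and 318 in control cells, which overlapped, and the change was 2.32 (SE 0.42, adjusted p = 0.0151). DUSP4, a dual-specificity phosphatase that switches off ERK, had 193, 171 and 255 in depleted and 17.0, 30.9 and 33.8 in control cells at 72 h, with 55.3, 44.0 and 96.0 in depleted and 64, 82.3 and 33.9 in control cells at 48 h. Its change was 2.27 (SE 0.40, adjusted p = 0.0128).

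MYC, which drives growth and ribosome synthesis, had 2161, 969 and 3009.9 in depleted and 632, 334 and 685 in control cells at 72 h. Its 48 h signals were 1409, 699 and 1640.1 in depleted and 1133, 637 and 1178 in control cells. Control cells fell by 0.83 in the last day (adjusted p = 0.0298) and depleted cells rose by 0.65 (0.0321), for a change of 1.48 (SE 0.24, adjusted p = 0.00909). The phosphatase DUSP1 (1.79, SE 0.35, adjusted p = 0.0211), the zinc finger factor KLF6 (1.37, SE 0.32, adjusted p = 0.0445), PHLDA1 (1.11, SE 0.23, adjusted p = 0.0264) and the stress factor ATF3 (1.27, SE 0.30, adjusted p = 0.0429) also passed. These 4 kept their calls in 5, 1, 5 and 2 of 12 single-array omissions, with adjusted p up to 0.0585, 0.114, 0.0711 and 0.107. FOS, at 1.21, and FOSL1, at 1.05, missed the threshold (adjusted p = 0.0643 and 0.152), and JUN was at 0.54 (0.447). Other probe sets of DUSP1, KLF6 and PHLDA1 reached down to -0.09, -0.07 and -0.67. The number called in this list lay between 3 and 7 over those 12 fits.

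Inflammatory genes differed in which medium moved. PTGS2, the inducible cyclooxygenase, had 1153, 1094 and 894 in depleted and 109, 148 and 141 in control cells at 72 h. At 48 h the PTGS2 signals were 419, 384 and 276 in depleted and 557, 483 and 229.7 in control cells. It rose by 1.51 in depleted cells (adjusted p = 0.00266) and fell by 1.48 in control cells (0.00879), and the change was 2.99 (SE 0.33, adjusted p = 0.00141). CCL20, a chemokine of the gut epithelium, had 396, 263 and 173 in depleted and 67.8, 11.2 and 51.3 in control cells at 72 h. At 48 h it had 336, 220.4 and 224 in depleted and 329.9, 362 and 197 in control cells. Depleted cells were at 0.04 between the times (adjusted p = 0.968) while control cells fell by 2.50 (0.00829), for a change of 2.54 (SE 0.54, adjusted p = 0.0293). Its effect was -2.09 at 24 h, -0.16 at 48 h and 2.38 at 72 h.

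In all, 3 of 20 measured NF-kB and inflammatory genes became more positive and none more negative (median 0.43), against 1.18% and 1.43% of all genes. The third was the early response gene IER3 (1.06, SE 0.22, adjusted p = 0.0269), whose level fell by 1.57 in control cells in the last day (adjusted p = 0.000616), with -0.51 in depleted cells (0.0632). CCL20 and IER3 kept their calls in 3 and 4 of 12 single-array omissions (adjusted p up to 0.075 and 0.0752). The chemokines CXCL8 (1.12), CXCL1 (1.07) and CXCL3 (1.03) missed the threshold (adjusted p = 0.154, 0.101 and 0.126), and the inhibitor NFKBIA was at 0.13 (0.851). The leukocyte markers summed to 607 to 718 in depleted and 521 to 555 in control cells at 72 h, and to 705 to 748 in depleted and 513 to 601 in control cells at 48 h, with 0 of 8 called for the change by limma (0 at an unadjusted p under 0.05).

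RGCC and EMP1 were both called higher in depleted cells at 72 h. RGCC, a regulator of the cell cycle that also responds to TGF-beta, had 1649, 1397 and 1754 in depleted and 211, 202 and 253 in control cells at 72 h. At 48 h it had 561, 332 and 626 in depleted and 613, 374 and 496 in control cells. The effect was 0.12 at 24 h, 0.01 at 48 h and 2.76 at 72 h, and the change of 2.75 (SE 0.23, adjusted p = 0.000369) had the smallest adjusted p of the 12319 genes. EMP1, an epithelial membrane protein, had 677, 617 and 751 in depleted and 82.2, 17.6 and 45.7 in control cells at 72 h, and 171, 121 and 323 in depleted and 74.3, 60.9 and 85.9 in control cells at 48 h. Depleted cells were above control cells at both times, and the effect grew by 2.36 (SE 0.41, adjusted p = 0.0128). The orphan receptor GPRC5A had an effect of 0.49 at 24 h, 0.77 at 48 h and 2.53 at 72 h (change 1.77, SE 0.21, adjusted p = 0.00237), and the chloride channel family member CLIC5 one of 1.70 at 24 h, 0.88 at 48 h and 2.27 at 72 h (change 1.40, SE 0.32, adjusted p = 0.0378). CLIC5 kept its call in 1 of 12 single-array omissions (adjusted p up to 0.0968). RGCC, EMP1, GPRC5A, CLIC5 and NPPB are the 5 called of 11 measured genes on a list of epithelial genes that had risen late in earlier results of these data, so their direction is no independent evidence (list median 0.33).

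PLAAT2, a phospholipase and acyltransferase, and MYL7, a myosin light chain of heart atria, were dim on part of the arrays. PLAAT2 had 85.1, 135 and 108 in depleted and 9.9, 13.4 and 12.1 in control cells at 72 h, and 9.0, 6.4 and 27.4 in depleted and 32.4, 44.0 and 20.8 in control cells at 48 h. Its change was 2.87 (SE 0.37, adjusted p = 0.00269). MYL7 had 64.5, 95.5 and 147 in depleted and 7.4, 10.3 and 40.7 in control cells at 72 h, and 28.1, 12.2 and 77.0 in depleted and 92.2, 49.4 and 97.4 in control cells at 48 h, with a change of 2.73 (SE 0.57, adjusted p = 0.027). MYL7 kept its call in 4 of 12 single-array omissions (adjusted p up to 0.0768).

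**Figure D3:**
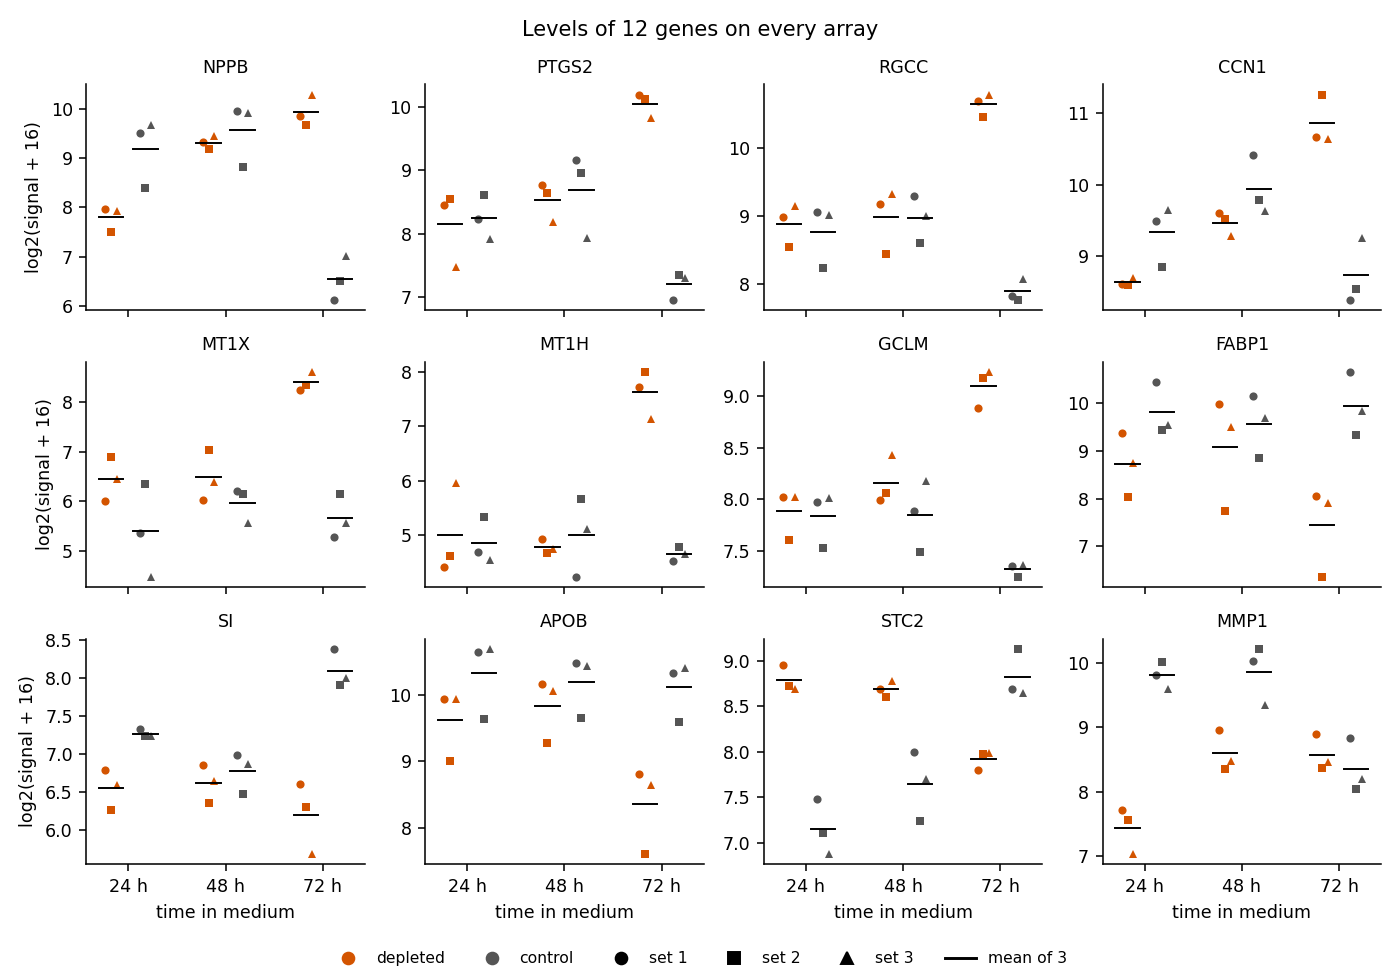
Levels, log2(signal + 16), of 12 genes on all 18 arrays by time in medium, depleted cells left of control cells, with symbols for the 3 sets and a bar for the mean of 3 arrays. NPPB, PTGS2, RGCC, CCN1, MT1X, MT1H and GCLM separate upward in depleted cells at 72 h, FABP1, SI and APOB separate downward, STC2 changes order between 48 h and 72 h, and the media close up for MMP1 at 72 h.

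NRF2 is the transcription factor of the antioxidant response and controls genes of glutathione synthesis, thioredoxin and NADPH supply. Of 34 measured targets 7 became more positive, against 1.18% of all genes, and none more negative, with a median change of 0.34. At 48 h 4 of them were called higher, and at 72 h 20 were called higher and 2 lower, against 0.568%, 6.21% and 8.65% of all genes. GCLM, the modifier subunit of glutamate-cysteine ligase, which starts glutathione synthesis, had 455, 563 and 586 in depleted and 147, 136 and 148 in control cells at 72 h. At 48 h the GCLM signals were 238, 249.8 and 328 in depleted and 221, 164 and 273 in control cells. They overlapped at 48 h and lay apart at 72 h, and the change was 1.47 (SE 0.23, adjusted p = 0.00761). TXNRD1, the thioredoxin reductase and itself an FAD enzyme, had 3356, 2476 and 3458 in depleted and 1076, 631 and 998 in control cells at 72 h, with 2289.9, 1380.2 and 1969 in depleted and 1312, 1098 and 1096 in control cells at 48 h. It was above control on every set at both times, and its effect grew by 1.13 (SE 0.20, adjusted p = 0.0128).

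The catalytic subunit GCLC (0.98, SE 0.20, adjusted p = 0.0247), the sulfiredoxin SRXN1 (1.18, SE 0.27, adjusted p = 0.0383), the small MAF factor MAFG (1.46, SE 0.34, adjusted p = 0.0413), the glutathione peroxidase GPX2 (1.10, SE 0.26, adjusted p = 0.0455) and the malic enzyme ME1 (0.70, SE 0.16, adjusted p = 0.036) passed as well. The calls of GCLM and TXNRD1 held in all 12 single-array omissions. Those of GCLC, SRXN1 and MAFG were kept in 4, 1 and 2 of the 12 (adjusted p up to 0.0671, 0.0995 and 0.105), and those of GPX2 and ME1 in 0 of them (up to 0.118 and 0.0822). The aldo-keto reductase probe sets AKR1C1 and AKR1C2, near-identical genes, had effects of 2.86 and 2.93 at 48 h and of 3.22 and 3.53 at 72 h, and their changes of 0.36 and 0.60 did not pass (adjusted p = 0.547 and 0.295). NQO1 (0.44, adjusted p = 0.321), HMOX1 (-0.41, 0.528) and SLC7A11 (0.13, 0.840) did not pass either. The number of NRF2 targets called lay between 2 and 5 when 1 array was left out.

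Among growth arrest genes, GADD45A (1.30, SE 0.28, adjusted p = 0.029), GADD45B (1.41, SE 0.34, adjusted p = 0.0486) and the polo-like kinase PLK2 (1.25, SE 0.27, adjusted p = 0.0302) became more positive, and ZMAT3, an RNA-binding p53 target, more negative (-0.93, SE 0.22, adjusted p = 0.0437). They are the 4 called of 24 measured p53 targets and CDK inhibitors, against 2.61% of all genes. The list's median change was 0.13 (-0.05 when all probe sets of a gene were averaged). These 4 genes kept their calls in 4, 2, 3 and 0 of 12 single-array omissions, with adjusted p up to 0.0799, 0.118, 0.0813 and 0.107. Other probe sets of ZMAT3 ran from -0.41 to 0.38. Of 32 hypoxia and glycolysis genes, the glucose transporter SLC2A1 (1.30, SE 0.25, adjusted p = 0.019) and hexokinase HK2 (1.23, SE 0.24, adjusted p = 0.0199) passed. Of all genes, 1.18% became more positive. The list median was -0.02 (0.12 with the 75th-percentile centring). The other HK2 probe sets ran the other way, at -1.33 and -0.79, so HK2 has no settled direction. SLC2A1 and HK2 kept their calls in 7 and 5 of the 12 fits (adjusted p up to 0.0599 and 0.0619).

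Of 55 measured G1/S and DNA replication genes 1 became more negative, a share near the 1.43% of all genes, and none more positive (median -0.16). At 72 h 16 of the 55 were called lower, against 8.65% of all genes, and at 48 h none was. The gene that became more negative was UHRF1, which maintains DNA methylation through replication, with 254, 225 and 363 in depleted and 688, 676 and 892 in control cells at 72 h and 598, 434 and 888 in depleted and 709, 603 and 939 in control cells at 48 h. Its change was -1.13 (SE 0.20, adjusted p = 0.0127), and depleted cells fell by 1.11 in the last day (adjusted p = 0.000862). Of 52 G2/M and mitosis genes 1 became more positive, a share near the 1.18% of all genes. It was the cytokinesis factor ECT2 (0.90, SE 0.19, adjusted p = 0.0261), which kept its call in 2 of 12 single-array omissions (adjusted p up to 0.0704). The list median was 0.05 and turned negative under quantile normalization (-0.06). Of 33 ribosome biogenesis genes and MYC targets, MYC alone passed, while 30 of the 33 had a positive change (median 0.36) against 5346 of all 12319 genes.

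Genes of enterocyte function and lipid export were among those that became more negative. FABP1, the fatty acid-binding protein of liver and small intestine, had 249, 66.4 and 224 in depleted and 1599, 625 and 898 in control cells at 72 h. At 48 h its signals were 993, 198 and 708 in depleted and 1119, 444 and 812 in control cells. Depleted cells fell by 1.63 in the last day (adjusted p = 0.00275), and the change was -2.01 (SE 0.36, adjusted p = 0.0139), while a dimmer FABP1 probe set was at 0.11. SI, the brush border sucrase-isomaltase, had 81.8, 63.3 and 35.6 in depleted and 318, 224 and 239 in control cells at 72 h, against 100.2, 65.7 and 84.4 in depleted and 111, 73.4 and 101 in control cells at 48 h. Control cells rose by 1.31 (adjusted p = 0.00425) and depleted cells were at -0.42 (0.186), for a change of -1.73 (SE 0.26, adjusted p = 0.00569).

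FABP1 and SI were the 2 of 17 measured enterocyte markers that passed, against 1.43% of all genes more negative, and the list median was -0.51. The other 15 included the peptidase DPP4 at -0.74 (adjusted p = 0.0813), the villin VIL1 at -0.32 (0.524) and the cadherin CDH17 at 0.09 (0.877). Summed over the 27 markers of the list, the signal was 5134 to 5847 in depleted cells and 7489.9 to 7667 in control cells at 72 h (n = 3 each). At 48 h the sums were 5901 to 6895 in depleted and 5719 to 7238 in control cells, which overlapped. The sums include markers below the filter and the 2 called genes. At 72 h the mean signals of FABP1 and SI were 180 and 60.2 in depleted and 1041 and 260 in control cells. The gap in the sums at 72 h is thus in large part that of these 2 genes. Intestinal stem cell markers had 0 of 10 called by limma (3 at an unadjusted p under 0.05) and a median of -0.42, with summed signals of 2882 to 3642 in depleted and 3735 to 4481 in control cells at 72 h. Their sums at 48 h were 3665 to 4099 in depleted and 3500 to 4330 in control cells, which overlapped. Whether the share of such cells had a part in the single-gene results was not tested.

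APOB, the structural protein of chylomicrons and other triglyceride-rich lipoproteins, had 432, 179 and 383 in depleted and 1275, 761 and 1347 in control cells at 72 h. At 48 h it had 1128, 603 and 1048 in depleted and 1413, 792 and 1375 in control cells. The fall was in depleted cells (-1.48, adjusted p = 0.000115), control cells were at -0.08 (0.815), and the change was -1.40 (SE 0.17, adjusted p = 0.00245). APOC3, which slows lipoprotein clearance, changed by -1.41 (SE 0.31, adjusted p = 0.0341) and kept its call in 4 of 12 single-array omissions (adjusted p up to 0.088). With FABP1 these were 3 of 15 measured apolipoprotein and lipid absorption genes, against 1.43% of all genes. Of the 15, 14 had a negative change (median -0.67), against 6973 of all 12319 genes. APOA1 (-0.12) and APOA4 (-0.52) missed the threshold (adjusted p = 0.829 and 0.607).

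Other lipid lists gave these counts, to be set beside the 1.43% of all genes that became more negative. Of 15 PPAR targets and lipid droplet genes, 2 became more negative (median -0.60), namely FABP1, and G0S2, an inhibitor of the lipase ATGL (-1.07, SE 0.25, adjusted p = 0.0455). Of 20 cholesterol synthesis genes, the sterol reductase TM7SF2 did (-1.56, SE 0.36, adjusted p = 0.0406), with a list median of -0.35. Limma called 0 of 24 genes of mitochondrial fatty acid oxidation (7 at an unadjusted p under 0.05). Of these 24, 21 had a negative change (median -0.33), against 6973 of all 12319 genes. G0S2 and TM7SF2 each kept their call in 2 of 12 single-array omissions (adjusted p up to 0.104 and 0.101). PEX11A, which divides peroxisomes, had 7.3, 29.9 and 8.8 in depleted and 37.6, 79.2 and 30.7 in control cells at 72 h, with 64.1, 67.3 and 54.6 in depleted and 27.5, 77.2 and 9.2 in control cells at 48 h (-1.79, SE 0.36, adjusted p = 0.023). PC, pyruvate carboxylase of gluconeogenesis and anaplerosis, had 4.6, 1.8 and 16.6 in depleted and 37.6, 85.6 and 66.8 in control cells at 72 h, with 25.3, 39.9 and 38.2 in depleted and 16.3, 32.1 and 22.3 in control cells at 48 h (-2.10, SE 0.42, adjusted p = 0.0229). Both were dim, and PEX11A and PC kept their calls in 5 and 6 of the 12 fits (adjusted p up to 0.0668 and 0.0624).

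Of 21 markers of hepatocytes and fetal liver, which Caco-2 cells express, APOB and the fibrinogen chain FGA (-1.38, SE 0.26, adjusted p = 0.0161) became more negative (median -0.40). Of all genes, 1.43% became more negative. A dimmer FGA probe set was at -0.22. The hepatocyte markers summed to 14126 to 18957 in depleted and 22022 to 28873 in control cells at 72 h, and to 14502 to 20143 in depleted and 19651 to 23361 in control cells at 48 h. ALB and AFP, serum albumin and alpha-fetoprotein, had effects of -2.18 and -2.13 at 48 h and of -2.36 and -2.72 at 72 h, and their changes of -0.18 and -0.60 did not pass (adjusted p = 0.836 and 0.393). The VLDL receptor VLDLR, which is also on the ATF4 list, became more positive (1.28, SE 0.21, adjusted p = 0.00969), as its effect was 0.40 at 24 h, -0.68 at 48 h and 0.59 at 72 h.

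**Figure D4:**
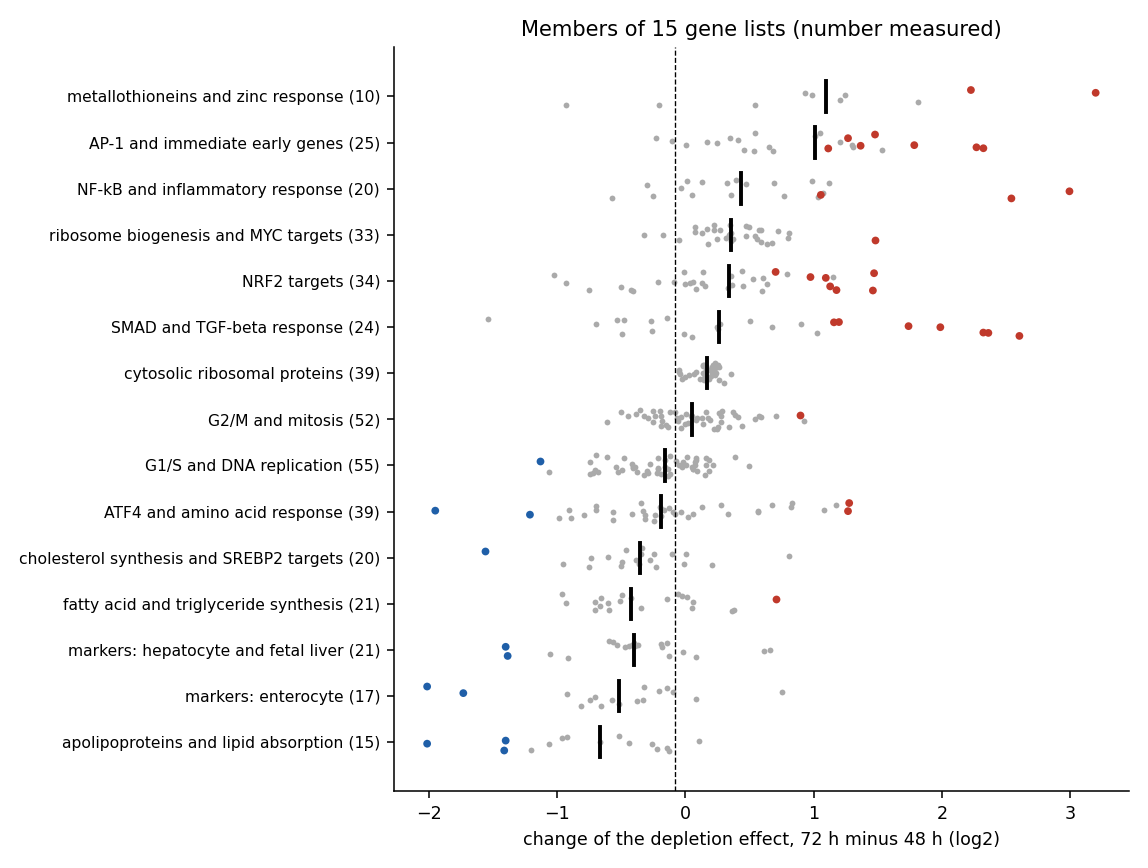
Change of the depletion effect from 48 h to 72 h (log2) for the measured members of 15 gene lists, 1 point a gene, red for called more positive, blue for called more negative and grey for not called. Black bars are list medians, from 1.10 for the metallothioneins to -0.67 for the apolipoproteins, and the dashed line is the median of all genes (-0.08).

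In 119 of the 176 genes that became more negative, the effect was positive at 48 h and negative at 72 h, which their choice by the contrast favours. STC2, the secreted stress glycoprotein stanniocalcin 2, had 207, 235 and 238 in depleted and 398, 545 and 386 in control cells at 72 h, against 398, 373 and 423 in depleted and 240.3, 135 and 192 in control cells at 48 h. The 2 media changed order in all 3 sets, with an effect of 1.64 at 24 h, 1.04 at 48 h and -0.90 at 72 h, called at 48 h and at 72 h (adjusted p = 0.0333 and 0.0098). The change was -1.95 (SE 0.29, adjusted p = 0.00563), and a second STC2 probe set was at -0.22. LTB4R, a leukotriene B4 receptor, had 3.9, 7.3 and 6.1 in depleted and 29.2, 32.6 and 55.7 in control cells at 72 h, and 21, 56.4 and 39.0 in depleted and 6.5, 7.7 and 5.3 in control cells at 48 h. Its effect was also called at both times (adjusted p = 0.0194 at 48 h and 0.00148 at 72 h), with a change of -2.55 (SE 0.31, adjusted p = 0.00237).

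DDX5, an RNA helicase, had 53.4, 68.2 and 57.6 in depleted and 105, 108 and 88.9 in control cells at 72 h, and 129, 174 and 188 in depleted and 58.7, 69.5 and 70.0 in control cells at 48 h. Its change was -1.74 (SE 0.21, adjusted p = 0.00237) and nearly equal by set, at -1.76, -1.71 and -1.76, although a probe set that matches DDX5 and another gene was not used. SETBP1, a nuclear protein that binds the oncoprotein SET, had 10.0, 0.3 and 21.3 in depleted and 24.4, 20.8 and 22.7 in control cells at 72 h, and 41.1, 39.2 and 34.1 in depleted and 4.1, 1.4 and 5.1 in control cells at 48 h (-2.09, SE 0.35, adjusted p = 0.00971). IYD, an iodotyrosine deiodinase that uses FMN, had 58.0, 58.0 and 85.1 in depleted and 155, 146 and 108 in control cells at 72 h, and 86.0, 235 and 154 in depleted and 57.7, 51.0 and 50.2 in control cells at 48 h (-2.12, SE 0.39, adjusted p = 0.0161). For SETBP1 the effect was called at 48 h and for IYD at neither time (adjusted p = 0.0602 and 0.0527). SETBP1 was dim, with no signal above 41.1 on the 12 arrays and 5 of them below the filter. Its highest group was depleted cells at 48 h (mean log2 value 5.76), where high values make the change negative. Without that group its mean would lie under the filter, so the calls of SETBP1 are no independent support. The call of IYD was lost without control 72 h replicate 1 (adjusted p = 0.053).

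STC2 belongs to the ATF4 and amino acid response, the programme that answers amino acid shortage and ER stress. Of its 39 measured genes, STC2 and the amino acid transporter SLC1A4 (-1.21, SE 0.28, adjusted p = 0.0406) became more negative and VLDLR and ATF3 more positive. The shares of all genes were 1.43% and 1.18%. The list median was -0.19 for the change, and the median effect was 0.74 at 24 h, 0.23 at 48 h and 0.13 at 72 h. From 48 h to 72 h the list's median level change was 0.41 in depleted cells and 0.60 in control cells. DDIT4, an mTORC1 inhibitor, had effects of 2.50, 1.26 and 0.37 over the 3 times, and its change of -0.89 did not pass (adjusted p = 0.275). ATF4 itself was at -0.13 (0.800), CHAC1 at -0.31 (0.854) and DDIT3 at 1.08 (0.0629). SLC1A4 kept its call in 0 of 12 single-array omissions (adjusted p up to 0.107), and its 4 other probe sets ran from -1.97 to -0.17.

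**Figure D5:**
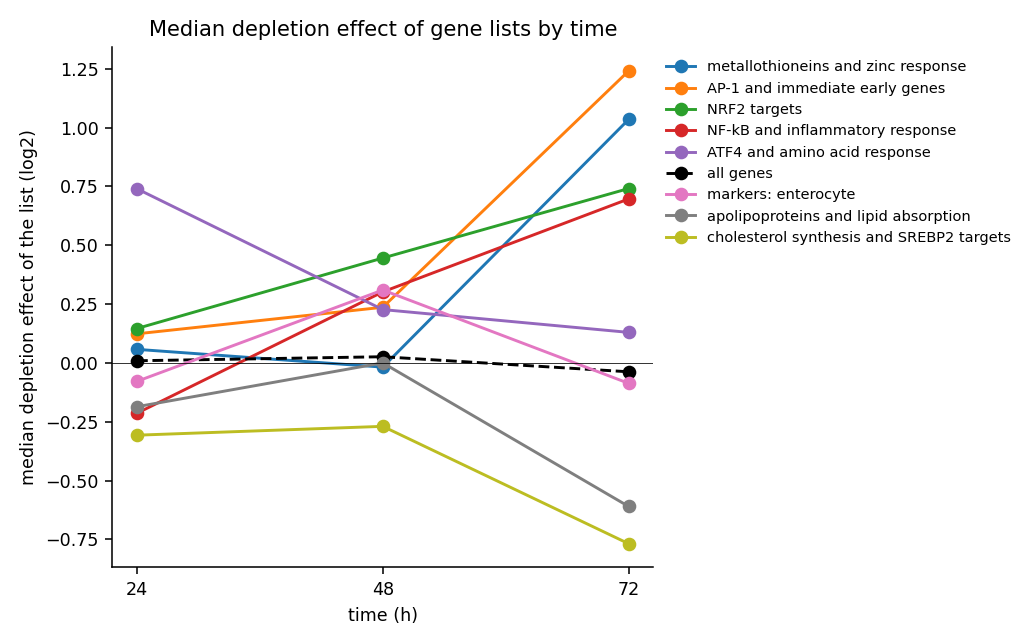
Median depletion effect (log2, depleted minus control) of 8 gene lists and of all genes at 24, 48 and 72 h. The AP-1 and metallothionein medians are 0.24 and -0.02 at 48 h and 1.24 and 1.03 at 72 h, the ATF4 median is highest at 24 h (0.74), and the apolipoprotein and cholesterol medians are lowest at 72 h; the 24 h arrays are outside the contrast.

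GAS2, an actin and microtubule binding protein first found in growth-arrested cells, had a change close to that of LTB4R, and the order of the negative changes depended on the pseudocount. With 4 in place of 16, LTB4R was at -4.05 and GAS2 at -3.47, and with 64 FABP1 came first (-1.75) and GAS2 was at -1.43. GAS2 was dim in depleted cells at 72 h. Its signals were 23.5, 22.3 and 1.2 in depleted and 132, 105 and 107 in control cells at 72 h, and 73.8, 63.4 and 63.5 in depleted and 45.7, 64.6 and 29.6 in control cells at 48 h. Depleted cells fell by 1.48 (adjusted p = 0.006) while control cells were at 1.09 (0.0626), for a change of -2.58 (SE 0.38, adjusted p = 0.00563). ZNRF3, a ubiquitin ligase that removes Wnt receptors, had 149, 181.6 and 164 in depleted and 474, 595 and 465 in control cells at 72 h. At 48 h the ZNRF3 signals were 450.5, 493 and 422 in depleted and 493, 511 and 360.1 in control cells, and its change was -1.55 (SE 0.19, adjusted p = 0.00237). Of 17 measured Wnt targets and secreted Wnt regulators it was the 1 that became more negative, and MYC the 1 that became more positive (median -0.37). The shares of all genes were 1.43% and 1.18%.

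LAMA1, a laminin chain of the basement membrane, was lower in depleted cells at both times and more so at 72 h. It had 123, 46.7 and 53.9 in depleted and 698, 401 and 412 in control cells at 72 h, and 195, 125 and 115 in depleted and 379.9, 304 and 288 in control cells at 48 h (-1.47, SE 0.23, adjusted p = 0.00828). The collagenase MMP1 became more positive, and control cells moved. It had 460.4, 313 and 334 in depleted and 441, 247 and 277 in control cells at 72 h, while at 48 h it had 483, 310.5 and 340.5 in depleted and 1028, 1173 and 632 in control cells. Its effect was -2.37 at 24 h, -1.26 at 48 h and 0.21 at 72 h, so the change of 1.48 (SE 0.30, adjusted p = 0.0228) closed a gap that was open at 48 h, and control cells fell by 1.5 in the last day (adjusted p = 0.00441). MMP1 kept its call in 8 of 12 single-array omissions (adjusted p up to 0.0616). These were the 2 called of 22 measured matrix protease and basement membrane genes (median 0.02, and -0.03 with a pseudocount of 64), against 2.61% of all genes.

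Among the remaining genes of the 15 largest negative changes were the organic anion transporter SLCO4C1 (-1.80, SE 0.29, adjusted p = 0.00945), the lens protein LGSN (-1.77, SE 0.26, adjusted p = 0.00527), PBLD (-1.76, SE 0.26, adjusted p = 0.00599), the potassium channel subunit KCND3 (-1.74, SE 0.41, adjusted p = 0.043) and the thiol methyltransferase TMT1B (-1.71, SE 0.37, adjusted p = 0.0302). SLCO4C1 had 65.5, 72.2 and 34.0 in depleted and 191, 172 and 179 in control cells at 72 h, and 103, 133 and 94.3 in depleted and 95.6, 122 and 48.0 in control cells at 48 h. LGSN moved in control cells, by 1.48 (adjusted p = 0.00237), and TMT1B in depleted cells, by -1.69 (0.00262). KCND3 and TMT1B each kept their call in 1 of 12 single-array omissions (adjusted p up to 0.11 and 0.0855). KCND3 had a mean log2 value of 5.97 in control cells at 72 h and 5.49 in depleted cells at 48 h. In each other group, 24 h included, it was at most 5.12, under the filter. High values in those groups above the filter make the change negative, so the call of KCND3 is no independent support.

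Genes that handle riboflavin itself did not pass. Of 8 measured genes of riboflavin transport and flavin cofactor synthesis, limma called 0 for the change, 0 at 48 h and 0 at 72 h, and 1 had an unadjusted p under 0.05 for the change. The transporters SLC52A2 and SLC52A3 were at 0.27 and 0.15 (adjusted p = 0.680 and 0.915). Riboflavin kinase RFK, which makes FMN, was at 0.40 (0.453), FAD synthase FLAD1 at 0.01 (0.992) and the mitochondrial FAD carrier SLC25A32 at 0.59 (0.170). RFK rested on set 2 alone, with changes by set of 0.00, 1.19 and 0.01.

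Among 52 measured enzymes on a list of FAD and FMN carriers, TXNRD1 became more positive and PCYOX1, a lysosomal prenylcysteine oxidase, more negative (-0.85, SE 0.19, adjusted p = 0.0378). These counts are near the shares of all genes, 1.18% and 1.43%, and the list median was -0.18. PCYOX1 kept its call in 2 of 12 single-array omissions (adjusted p up to 0.0997). At 48 h none of the 52 was called, and at 72 h 4 were called higher and 10 lower, against 6.21% and 8.65% of all genes. Flavin enzymes outside the list are not in these counts, among them IYD, described above, and the NADPH oxidase NOX1, which became more positive (1.82) and was called higher at 72 h (1.33, adjusted p = 0.00016). Within the list the 4 higher at 72 h were TXNRD1, glutathione reductase GSR, and the quinone reductases NQO1 and AIFM2, with effects of 1.78, 0.90, 0.84 and 0.85. The medium-chain dehydrogenase ACADM was among the 10 lower, at -0.90, but its change of -0.75 did not pass (adjusted p = 0.0739). Of 33 complex I subunits limma called 0 for the change (7 at an unadjusted p under 0.05, against 2245 of all 12319 genes). A negative change was found in 27 of the 33, against 6973 of all 12319 genes. The list median of -0.11 was near the -0.08 of all genes. It was 0.02 with the 75th-percentile centring and -0.26 under quantile normalization. At 72 h 13 of the 33 were called lower, against 8.65% of all genes. Of 34 subunits of complexes II to V, ATP5MC1, a ring subunit of ATP synthase, became more negative (-0.94, SE 0.21, adjusted p = 0.0325, kept in 2 of the 12 fits, adjusted p up to 0.0873). Of all genes, 1.43% became more negative, and the list median was 0.04.

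In the other lists few members or none passed. Their counts at an unadjusted p under 0.05 are again to be set beside 2245 of all 12319 genes. Of 19 heat shock proteins HSPB8, a small chaperone, became more positive (1.22, SE 0.20, adjusted p = 0.00971), and its other probe set was at -0.73. Of 21 genes of fatty acid and triglyceride synthesis ME1 did, against a list median of -0.43. No member passed in limma among 39 cytosolic ribosomal proteins (0 at an unadjusted p under 0.05), whose median of 0.17 was -0.03 after quantile normalization, or among 27 proteasome subunits (5, median 0.17). The same held for 28 chaperones of the unfolded protein response (2, median -0.02), 17 cytosolic aminoacyl-tRNA synthetases (2, 0.01) and 21 interferon response genes (1, -0.15). It also held for 32 lysosome and autophagy genes (1, -0.01), 20 genes of iron and haem handling (6, -0.05), 13 S100 proteins and keratins (3, -0.07), 9 histones (2, -0.15), 8 long noncoding RNAs (0, -0.11), 7 goblet cell markers (2, 0.09) and 2 enteroendocrine markers (1, 0.41).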

How the data were processed

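RNA of Caco-2 cells was hybridised to 18 single-channel Affymetrix U133 Plus 2 arrays. The authors deposited MAS5 signal intensity per probe set, per the submitters' processing notes; no version is stated there, and their scaling was kept. Of 54675 probe sets, 62 controls were left out. By the platform annotation, 41097 have 1 symbol, 1801 several and 11721 none here (41043 found by Entrez ID, 0 symbols updated).

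Values were log2(signal + 16), which understates changes of dim genes. Probe sets with a mean at or above the median, 5.15, were tested (27307, of which 22946 have 1 symbol, for 12319 genes by the brightest probe set). limma 3.58.1 in R 4.3.3 fitted the 6 groups with the set as a fixed block, with eBayes and Benjamini-Hochberg adjustment over all 27307, called at 0.05. Of 18 arrays, 18 correlated best with their own set after group means were removed (0.30 to 0.60 within sets, -0.75 to 0.16 between), and the numbering of the arrays gives the pairing. The fit was tested on simulated data. Figures used Python 3.11.15 and matplotlib 3.10.9. The number of arrays, 3 a group, limits the precision.

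Named genes are the 15 largest changes in each direction with the same sign in 3 sets, then called members and up to 3 members of smallest p from each list. Other members named as not passing were chosen after their values were seen. The members and lists were chosen with earlier results of these data known. Beside the 321 genes called, 168 were called only through another probe set. Alternatives varied pseudocount, scaling, filter, block, arrays and sets.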

Additional observations from a re-analysis of the deposited data

Results flagged for a closer look

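The difference between the depletion effects at 72 h and at 48 h was itself the contrast tested, and it passed in limma for 615 probe sets. The 15 genes with the largest positive log2 change were NPPB (3.64), MT1H (3.20), PTGS2 (2.99), PLAAT2 (2.87), RGCC (2.75), MYL7 (2.73), CCN1 (2.60), CCL20 (2.54), CCN2 (2.36), EMP1 (2.36), EDN1 (2.35), MAFF (2.32), ANKRD1 (2.32), DUSP4 (2.27) and JAG1 (2.23). The 15 with the largest negative change were GAS2 (-2.58), LTB4R (-2.55), IYD (-2.12), PC (-2.10), SETBP1 (-2.09), FABP1 (-2.01), STC2 (-1.95), SLCO4C1 (-1.80), PEX11A (-1.79), LGSN (-1.77), PBLD (-1.76), DDX5 (-1.74), KCND3 (-1.74), SI (-1.73) and TMT1B (-1.71). Of these 30 genes, 23 were called in every fit that left out 1 array, 17 without the set as block and 16 after at least 1 of the 3 sets was left out, but 0 after each of the 3. Of the 42 other named genes that were called, 14 held in every fit that left out 1 array, but only THBS1 and ZNRF3 passed without the set as block. APOB, MYC and TGIF1 each had an adjusted p of 0.47 there, as did FABP1 of the 30. The larger move of NPPB, CCL20 and LGSN was in control cells, and that of MT1H, JAG1 and TMT1B was in depleted cells.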

How the results depend on the processing

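The set as block carried most calls, since arrays of a set deviated together. With no replicate block the counts of probe sets called were 46 for the change of the effect, 1136 for the effect at 72 h, 22 for that at 48 h, 263 for the change in depleted cells and 19 for that in control cells, against 615, 3631, 189, 2168 and 371 with it. With the 12 arrays of 48 h and 72 h alone and the replicate block, the change gave 320, the effect at 48 h 74 and the change in control cells 152. Leaving out 1 array gave 217 (without control 72 h replicate 1) to 436 (without control 48 h replicate 3) for the change, 2135 to 3799 for 72 h, 56 to 197 for 48 h, 1011 to 2252 in depleted and 87 to 405 in control cells. Leaving out a whole set gave 0 to 107, 349 to 2853, 0 to 26, 0 to 967 and 0 to 79 in that order. Where limma called 0, it found 2872 to 3934 of the 27307 probe sets tested at an unadjusted p under 0.05, some of them by chance alone. Fewer arrays also leave fewer degrees of freedom.

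The filter set how many tests were adjusted for. Without it the counts were 153, 2273, 64, 937 and 113, and with a filter at the 75th percentile the change, the effect at 48 h and the change in control cells gave 1087, 527 and 990. A pseudocount of 64 gave 994, 357 and 715 for these 3. The cause was not tested. A pseudocount of 4, both rescalings and the set as a random block kept all 5 counts within 1.5 times. No direction of a called value reversed under any setting. Signal near background limits 12 of the 30 genes of largest change, which were below the filter of 19.6 on at least 1 of the 12 arrays: MT1H on 8, LTB4R on 6, PLAAT2, SETBP1 and KCND3 on 5, PC on 4, MYL7 and PEX11A on 3, and CCL20, EMP1, DUSP4 and GAS2 on 1. TGFB2 was below it on 2.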

Other observations

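The 12 genes of this part were chosen after their values had been seen, so their p-values (limma, adjusted over all probe sets) are not independent support. ASS1, argininosuccinate synthase of arginine synthesis, had signals of 439.7, 439 and 606 in depleted and 658, 574 and 891 in control cells at 72 h, and 372, 376 and 569 in depleted and 166, 134 and 274 in control cells at 48 h. The media changed order between the times, and the change was -1.66 (SE 0.22, adjusted p = 0.00269). ASS1 rose by 1.84 in control cells in the last day (adjusted p = 0.000128), against 0.18 in depleted cells (0.547). ALDH1L2, the mitochondrial enzyme that oxidises 10-formyltetrahydrofolate, had 81.6, 67.1 and 53.5 in depleted and 191, 159.9 and 143 in control cells at 72 h, and 74.0, 55.2 and 54.3 in depleted and 55.0, 46.8 and 35.8 in control cells at 48 h. Its effect was 1.42 at 24 h, 0.32 at 48 h and -1.12 at 72 h, with a change of -1.44 (SE 0.18, adjusted p = 0.00245). ASPA, aspartoacylase, had effects of 1.00, 0.02 and -1.36 at these times and a change of -1.38 (SE 0.29, adjusted p = 0.0278). MYCN, a paralogue of MYC, changed in the opposite direction to MYC, by -1.32 (SE 0.22, adjusted p = 0.0102). AGT, angiotensinogen, changed by -1.44 (SE 0.27, adjusted p = 0.0162), and GUCY2C, the intestinal guanylyl cyclase receptor, by -1.43 (SE 0.30, adjusted p = 0.0286).

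NR1D2, the clock repressor REV-ERB beta, had 761, 732 and 766 in depleted and 265, 241 and 302 in control cells at 72 h, and 164, 154 and 155 in depleted and 188, 133 and 226 in control cells at 48 h. Depleted cells at 72 h stood above the other 3 groups, and the level rose by 2.14 in depleted cells in the last day (adjusted p = 3.24e-05), for a change of 1.60 (SE 0.21, adjusted p = 0.00283). NOX1, the NADPH oxidase of colon epithelium and an FAD enzyme, had 516, 304 and 488 in depleted and 197, 114 and 179 in control cells at 72 h, and 360.4, 227 and 369.9 in depleted and 532, 361 and 453 in control cells at 48 h. It fell by 1.39 in control cells (adjusted p = 0.0016), with 0.43 in depleted cells (0.119), and its change was 1.82 (SE 0.22, adjusted p = 0.00245). FHL2, a LIM-domain cofactor, changed by 2.08 (SE 0.28, adjusted p = 0.00283) and the ephrin receptor EPHA2 by 1.76 (SE 0.32, adjusted p = 0.0154). ANXA1, annexin A1, changed by 1.55 (SE 0.21, adjusted p = 0.00285) and EREG, the EGF receptor ligand epiregulin, by 1.26 (SE 0.22, adjusted p = 0.0125).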
